A study of Mus musculus with 6 samples.

Results

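The genes described are 10 effector cytokine genes of T helper cells, Il2, Il21, Ifng, Il17a, Il17f, Il22, Il9, Lif, Osm and Csf1, out of 22180 genes measured. They were chosen by name, with earlier results of these data known. Each is represented by 1 probe set, a group of probes for 1 gene whose signals are summarised together, so that 10 probe sets carry all the values. Splenic CD4+ T cells of wild-type female C57BL/6 mice, about 8 weeks old, were stimulated for 24 h with antibodies to CD3 and CD28 at 10 µg/mL each. They were then kept for another 24 h either with 100 µM icilin dissolved in dimethyl sulfoxide (DMSO) or with DMSO alone, called vehicle here. All cells grew in RPMI medium with 10% fetal bovine serum and 500 µM 2-mercaptoethanol, and no unstimulated cells were analysed here. Icilin is a cooling agent made by synthesis, known as an activator of the ion channels TRPM8 and TRPA1. Each group held 3 Affymetrix Mouse Gene 2.0 ST arrays, and the cells of the 3 mice were used for icilin and for vehicle alike.

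Cytokines are secreted proteins by which T helper cells instruct other cells, and activated CD4+ T cells make different sets of them. Interleukin 2 drives T cell division, interleukin 21 acts on B cells and on T cells themselves, and interferon gamma, the signature product of Th1 cells, activates macrophages. The products of Il17a, Il17f and Il22 mark Th17 cells, and that of Il9 marks Th9 cells. Leukaemia inhibitory factor (Lif) and oncostatin M (Osm) signal through the shared receptor chain gp130, and Csf1 is the growth factor of macrophages. T cell receptor signals switch many of these genes on through the factor families NFAT and AP-1, while receptors of the cytokines signal through JAK kinases and STAT factors.

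None of the 10 genes changed by the limits of the study, an adjusted p under 0.1 together with a change of at least 1.5-fold. By limma with Benjamini-Hochberg adjustment over all genes, 0 of 10 were called, and significance analysis of microarrays (SAM), the test named by the study, also called 0. Over all 22180 genes, 1.40% were called, 1.03% lower and 0.370% higher, so that a count of 0 in 10 genes lies near the background. At an unadjusted p under 0.05, 2 of the 10 were lower (Lif and Ifng) and 0 higher, where 8.05% and 9.09% of all genes were. Without the fold limit, 1 gene passed the adjusted p, Lif, which was lower with icilin. Of all genes, 5.28% passed in this way, with 3.00% lower and 2.27% higher. The log2 fold change (icilin minus vehicle) was below 0 in 9 of the 10, against 47.0% of all genes, with a median of -0.19 beside 0.01 for all genes.

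The sequences just before the start sites of 3 of these genes are shown because Lif and Ifng had the smallest p of the 10 and because Il2 is the textbook target of T cell activation. Each runs from 250 bases before to 50 bases after the annotated start, 5′ to 3′ on the strand of the gene, as given by RefSeq on build GRCm38.p6. Capitals mark matches on either strand to 4 short motifs, those of AP-1 (TGANTCA), STAT factors (TTCNNNGAA), NFAT (GGAAA) and the TATA box (TATAAA).
Lif, chr11:4257318-4257617, plus strand: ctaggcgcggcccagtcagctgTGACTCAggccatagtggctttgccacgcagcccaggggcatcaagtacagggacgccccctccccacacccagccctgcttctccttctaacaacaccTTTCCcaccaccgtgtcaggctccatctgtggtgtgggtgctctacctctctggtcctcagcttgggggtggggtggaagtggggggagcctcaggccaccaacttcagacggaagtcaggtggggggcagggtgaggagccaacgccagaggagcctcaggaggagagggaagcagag
Ifng, chr10:118440796-118441095, plus strand: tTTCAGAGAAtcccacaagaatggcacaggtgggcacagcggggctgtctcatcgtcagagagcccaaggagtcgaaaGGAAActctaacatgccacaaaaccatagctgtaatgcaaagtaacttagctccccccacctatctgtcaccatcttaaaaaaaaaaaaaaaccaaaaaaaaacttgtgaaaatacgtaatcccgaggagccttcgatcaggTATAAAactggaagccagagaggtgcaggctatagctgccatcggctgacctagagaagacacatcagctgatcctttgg
Il2, chr3:37125905-37126204, minus strand: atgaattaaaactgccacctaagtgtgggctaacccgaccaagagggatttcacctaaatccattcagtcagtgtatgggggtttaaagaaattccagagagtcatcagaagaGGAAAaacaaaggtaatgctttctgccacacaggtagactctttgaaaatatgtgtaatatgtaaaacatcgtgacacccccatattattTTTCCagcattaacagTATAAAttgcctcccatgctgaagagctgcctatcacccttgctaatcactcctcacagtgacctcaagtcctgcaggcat
The Lif window holds an AP-1 match at -228 to -222 from the start and an NFAT match at -129 to -125, and no match to TATAAA. In the Ifng window a STAT match lies at -249 to -241, an NFAT match at -172 to -168 and a TATA match at -30 to -25. The Il2 window has NFAT matches at -137 to -133 and -47 to -43 and a TATA match at -31 to -26.

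Among the 9 members with a window in this table (all but Osm), AP-1 matches were found in 3 (Lif, Il17a and Il9), a STAT match in 1, NFAT matches in 8 and TATA matches in 5. Of all 32851 windows of this length, 7.81% held the AP-1 letters, 8.30% the STAT letters, 61.3% the NFAT letters and 13.6% the TATA letters. A match describes letters only, and no binding was measured.

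The 10 probe sets differed widely in brightness, which is the mean log2 signal over 6 arrays. It depends on the probes as well as on the RNA, so it ranks probe sets and not amounts of transcript. Lif was the brightest, at percentile 95.5 of all genes (rank 997 of 22180), followed by Osm at 79.5, Il21 at 66.7, Il2 at 66.0 and Ifng at 61.8. Il17f (46.7), Csf1 (42.2), Il17a (40.0) and Il9 (38.8) lay below the median gene, and Il22 was among the dimmest of all, at percentile 1.28. As a scale for silent genes, 1394 olfactory and vomeronasal receptor genes, which T cells are not known to use, had a median of 2.02 and a 95th percentile of 4.09. Lif, Osm, Il21, Il2 and Ifng were brighter than at least 99.6% of them. Il17f (96.0%) and Csf1 (95.1%) were just above the 95th percentile, and Il17a (94.1%), Il9 (93.7%) and Il22 (11.5%) were not above it. RMA compresses the differences of dim probe sets towards 0, so that those of the last 5 are the least sure.

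**Figure D1:**
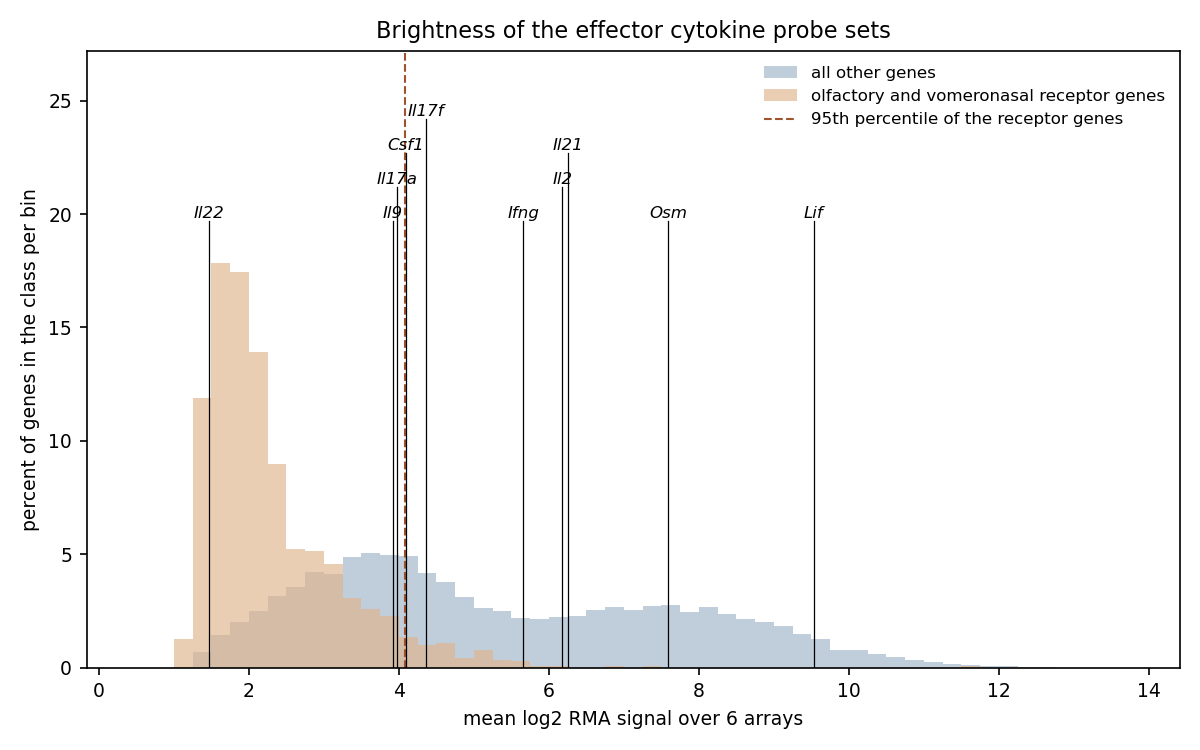
Histogram of mean log2 RMA signal over 6 arrays, as percent of genes in each class, for 1394 olfactory and vomeronasal receptor genes and for all other genes, with a vertical line for each effector cytokine. Lif, Osm, Il21, Il2 and Ifng stand to the right of the receptor genes, while Il9, Il17a, Csf1 and Il17f lie near the dashed 95th percentile of 4.09 and Il22 lies within their bulk.

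Lif, a cytokine of the interleukin 6 family that keeps stem cells undifferentiated and is also made by activated T cells, showed the clearest difference of the 10. Its log2 signal was 9.71, 9.66 and 9.75 in vehicle replicates 1 to 3 and 9.35, 9.34 and 9.37 in the icilin replicates. All icilin arrays lay below all vehicle arrays, and the arrays of each group were close together (SD 0.04 in vehicle and 0.02 in icilin, n = 3). The log2 fold change was -0.36 ± 0.06 (SE; limma adjusted p = 0.0273), which is 1.28-fold lower and short of the 1.5-fold limit. Its 95% interval, -0.50 to -0.22, lay within 1.5-fold. In these bulk samples, fewer cells making a transcript and less transcript per cell cannot be told apart. Without the fold limit, Lif passed an adjusted p of 0.1 with any 1 array left out except icilin replicate 1 (0.104) or icilin replicate 2 (0.108), over a log2 fold change of -0.38 to -0.34.

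Osm, the neighbour of Lif in the genome, whose product also signals through gp130, had overlapping groups. It stood at 7.54, 7.63 and 7.66 with vehicle and at 7.49, 7.52 and 7.69 with icilin, a difference of -0.04 ± 0.08 (SE; limma adjusted p = 0.832; 95% interval -0.23 to 0.14). The highest of the 6 values was that of an icilin array.

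Ifng stood next to Lif in the size of its difference. Vehicle arrays gave 6.00, 5.63 and 5.84, and icilin arrays 5.42, 5.60 and 5.48. The groups did not overlap, but the highest icilin value was only just under the lowest vehicle value. The log2 fold change was -0.33 ± 0.11 (SE; 95% interval -0.58 to -0.08), 1.26-fold lower, with a limma adjusted p of 0.179. Lif and Ifng were the 2 of 10 members whose icilin arrays all lay below the vehicle arrays, where 10.5% of all genes did, and 0 lay above, where 13.6% did.

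Il2 and Il21, neighbouring genes for growth factors that signal through the common gamma chain, had overlapping groups. Il2 measured 6.53, 6.07 and 6.22 with vehicle and 6.24, 5.95 and 6.05 with icilin. Its difference was -0.19 ± 0.13 (SE; limma adjusted p = 0.525; 95% interval -0.51 to 0.12). Il21 measured 6.44, 6.31 and 6.20 with vehicle and 6.19, 6.10 and 6.30 with icilin, a difference of -0.12 ± 0.09 (SE; limma adjusted p = 0.559; 95% interval -0.33 to 0.09). For both genes the interval excludes a change of 1.5-fold in either direction on this signal scale.

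The Th17 cytokine genes were dim. Il17a gave 4.45, 4.26 and 3.63 with vehicle and 3.92, 3.69 and 3.94 with icilin. The third vehicle array was the lowest of all 6, although the vehicle mean was the higher (-0.27 ± 0.20, SE; limma adjusted p = 0.574). Il17f, its neighbour and closest homologue, gave 4.73, 4.04 and 4.25 with vehicle and 4.07, 4.64 and 4.40 with icilin. It was the 1 member with a difference above 0, at 0.03 ± 0.21 (SE; limma adjusted p = 0.958). Il22, which acts on epithelial cells and not on T cells, gave 1.68, 1.36 and 1.58 with vehicle and 1.33, 1.61 and 1.23 with icilin, at the level of silent receptor genes. Its difference was -0.15 ± 0.13 (SE; limma adjusted p = 0.612). A near-identical copy of Il22, Iltifb, has a probe set of its own, equally dim at 1.38 with vehicle and 1.44 with icilin, and probes could detect either gene.

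Il9 and Csf1 were also close to the level of silent genes. Il9, a growth factor for mast cells, gave 4.01, 3.91 and 4.12 with vehicle and 4.07, 3.27 and 4.13 with icilin. A single array, icilin replicate 2, stood apart, and without it the difference of -0.19 ± 0.22 (SE; limma adjusted p = 0.728) became 0.088. Csf1 gave 4.40, 3.91 and 4.32 with vehicle and 3.97, 4.004 and 3.97 with icilin. The icilin arrays agreed closely, whereas vehicle replicate 2 lay below them and the other vehicle arrays above (-0.23 ± 0.13, SE; limma adjusted p = 0.420). Over the 10 members, 8 of the 95% intervals, each taken alone, lay within 1.5-fold, and those of Il17a (-0.75 to 0.21) and Il9 (-0.71 to 0.33) reached further. The 8 include the dim Il17f, Csf1 and Il22, whose intervals describe the signal and do not bound the change in transcript.

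**Figure D2:**
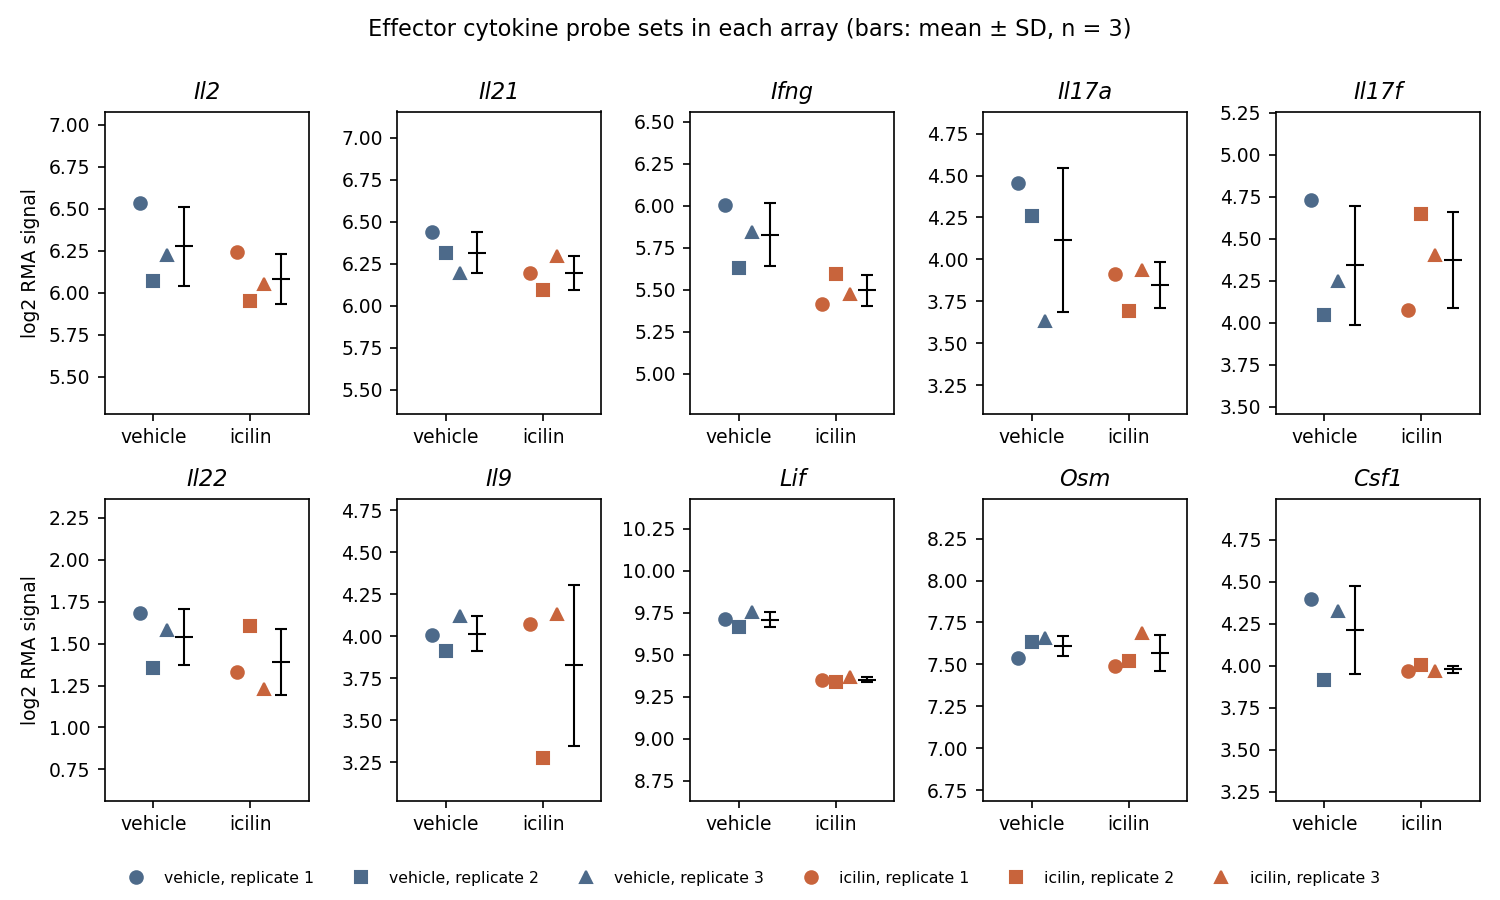
Log2 RMA signal of the 10 effector cytokine probe sets in each of the 3 vehicle (blue) and 3 icilin (orange) arrays, with the marker shape giving the replicate number and bars giving mean ± SD (n = 3); every panel spans the same log2 range. Only Lif and Ifng have icilin points that all lie below the vehicle points, and for Lif the step of -0.36 is wide against the spread.

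**Figure D3:**
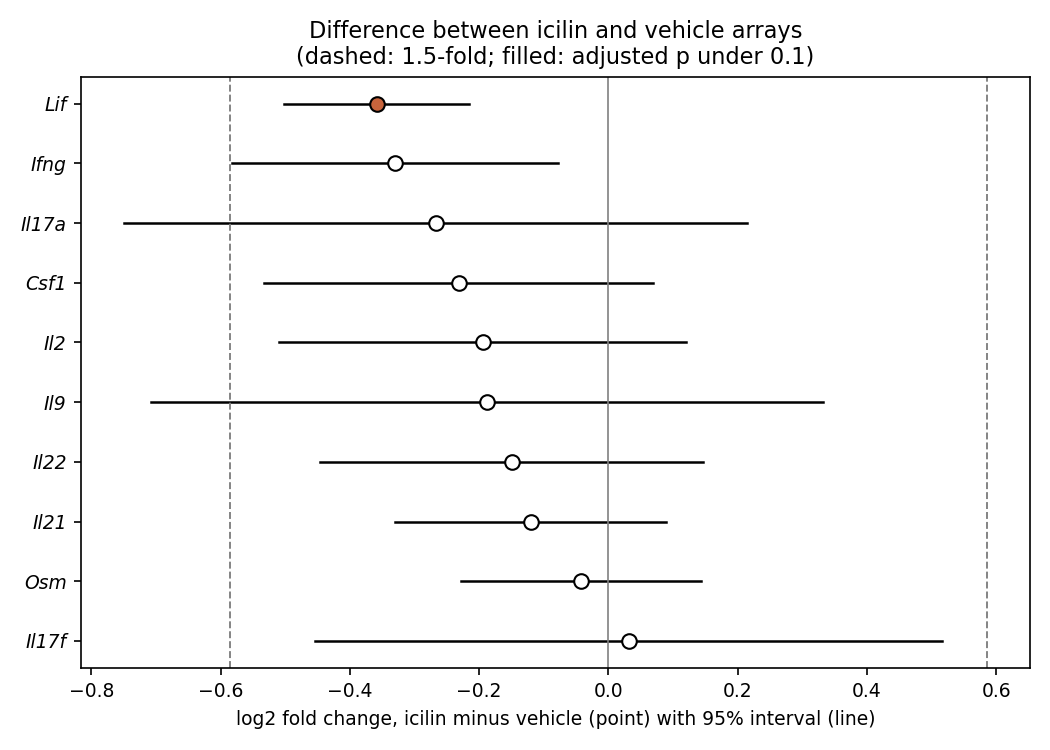
Log2 fold change of each effector cytokine gene, icilin minus vehicle, with its 95% interval from limma. Lif (filled, adjusted p = 0.0273) and the other 9 genes all lie inside the dashed 1.5-fold lines, and the intervals of Il17a and Il9 cross the lower line.

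A single vehicle array was high for most of the members. Vehicle replicate 1 was the brightest of all 6 arrays for 7 of the 10 members (Il2, Il21, Ifng, Il17a, Il17f, Il22 and Csf1), against 16.9% of all genes; among the vehicle arrays alone it was the highest for the same 7, against 36.4%. Without it, the log2 fold change moved from -0.19 to -0.07 for Il2, from -0.12 to -0.06 for Il21, from -0.33 to -0.24 for Ifng, from -0.27 to -0.10 for Il17a and from -0.23 to -0.14 for Csf1. Il17f moved away from 0 without vehicle replicate 1, from 0.03 to 0.23. Leaving out other arrays moved values in both directions, and Il2 came to -0.13 without icilin replicate 2. Values further from 0 included -0.30 for Il2, -0.43 for Ifng and -0.38 for Csf1 without vehicle replicate 2. Il17a came to -0.51 without vehicle replicate 3 and Il22 to -0.26 without icilin replicate 2. Of these, Csf1 then had a limma adjusted p of 0.0868 and Il17a one of 0.114, both still short of 1.5-fold. Without vehicle replicate 1, the log2 fold change of Lif stayed at -0.36 (limma adjusted p = 0.0785), and 9 of 10 members still had values below 0. No label gives this array a batch of its own, and its part in these values beyond leaving it out was not tested.

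Within neighbouring pairs, the differences between icilin and vehicle could also be set against each other. Pairs were compared by the log2 difference between the 2 genes in each array, with a two-sided exact permutation test of 3 against 3 arrays, whose smallest possible p is 0.1. Lif minus Osm was 2.10 ± 0.07 (SD, n = 3) with vehicle and 1.78 ± 0.09 with icilin, a shift of -0.32 with no overlap (exact p = 0.1, adjusted over 4 pairs 0.2). Ifng minus Il22 shifted by -0.18, also with no overlap (exact p = 0.1, adjusted 0.2), but Il22 carries no signal above silent genes. Il17a minus Il17f shifted by -0.30 (exact p = 0.5) and Il2 minus Il21 by -0.07 (exact p = 0.7), both with overlapping arrays. Lif and Osm, Il2 and Il21, and Il17a and Il17f have 0 protein-coding genes between them in the RefSeq table, and Ifng and Il22 have 1, Iltifb. With 3 arrays a group, no pair could reach a p under 0.05 by this test.

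The genes most like Lif over the 6 arrays were the glycogen branching enzyme gene Gbe1 (Pearson r = 0.998), the chromatin regulator gene Jarid2 (0.998), Tmem71 (0.997), the signalling adaptor gene Pik3ap1 (0.996) and Abi3 (0.996). They were sought among 10293 of the 11090 genes brighter than the median, leaving out Lif itself, gene models, microRNAs, small nucleolar RNAs and olfactory and vomeronasal receptors by their symbols. These values describe 6 arrays in 2 groups and include the step between the groups. Of the 5, Gbe1 fell from 7.93 to 6.76 (-1.17 ± 0.08, SE; limma adjusted p = 0.000927), Pik3ap1 from 8.18 to 7.56 (-0.62 ± 0.06) and Abi3 from 7.11 to 6.48 (-0.64 ± 0.07), each past 1.5-fold, while Jarid2 (-0.45) and Tmem71 (-0.46) were short of it.

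A list of other cytokine genes, not all of the same families as the members, held calls that the 10 members lacked. Of 23 measured genes, 4 fell, 0 rose and 19 were not called. Values were below 0 in 16 of the 23 (median -0.11). Of all genes, 1.03% were called lower and 0.370% higher, and 47.0% had values below 0. The same shares apply to the lists below, as do those at an unadjusted p under 0.05 (8.05% lower and 9.09% higher). All these lists were written with earlier results of these data known. The largest fall was that of Il24, an interleukin 10 family cytokine, from 8.83 to 7.22 (-1.61 ± 0.10, SE; limma adjusted p = 0.000796). Il3, a growth factor of mast cells and basophils, fell from 4.45 to 2.93 (-1.52 ± 0.17), where the icilin mean lies within the range of silent genes and the size of the fall is unsure. Csf2, which encodes GM-CSF, fell from 6.59 to 5.56 (-1.03 ± 0.11) and the eosinophil factor Il5 from 5.47 to 4.88 (-0.59 ± 0.12). Averaging the probe sets of Csf2 gave -0.48, which ended its call. Il5 was no longer called without icilin replicate 1 or 3 or any single vehicle array (-0.63 to -0.49) when arrays were centred or quantile normalized (-0.57 and -0.56), or with the replicate number as a block (limma adjusted p = 0.117). Of 17 other cytokine genes of T cells, 3 fell and 0 rose, with 14 of 17 below 0 (median -0.17). Tgfb3, a ligand of the transforming growth factor beta family, fell from 6.32 to 4.12 (-2.20 ± 0.16). Its icilin mean lies close to the 95th percentile of silent genes (4.09), so the size of this fall is unsure as well. The TNF family ligands Tnfsf14 (-0.61 ± 0.09) and Ltb (-0.61 ± 0.06) fell by amounts close to the limit. The call of Tnfsf14 ended without vehicle replicate 1 (-0.56) or 3 (-0.58), and that of Ltb when arrays were centred on their median (-0.58).

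The receptors of the 10 cytokines were called in 0 of 15 measured cases by limma. At an unadjusted p under 0.05, 2 were higher and 2 lower, where 9.09% and 8.05% of all genes were. SAM called 0, and the median was -0.04. The smallest p was that of Il6st, which encodes gp130, the signalling chain used by Lif and Osm. It stood at 8.01 with vehicle and 8.48 with icilin (0.47 ± 0.07, SE; limma adjusted p = 0.0172), short of 1.5-fold and opposite in sign to Lif. Of genes picked with their values in view, the interleukin 2 receptor genes Il2ra (-0.04 ± 0.06) and Il2rb (-0.13 ± 0.06) and the interferon gamma receptor genes Ifngr1 (-0.09 ± 0.06) and Ifngr2 (0.09 ± 0.08) had differences within 0.14 of 0. Larger differences, also picked in this way, included those of Il10rb (0.20), Il21r (-0.225), Csf1r (-0.26) and Il9r (-0.27), with limma adjusted p from 0.142 to 0.293. The specific receptor chains of Lif and Osm, Lifr (percentile 37.6) and Osmr (25.5), picked in the same way, were dimmer than the median gene.

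Of the kinases and factors that carry cytokine signals, 0 of 9 measured JAK and STAT genes were called by limma and 0 by SAM. Values were below 0 in 7 of 9 (median -0.30), against 47.0% of all genes. At an unadjusted p under 0.05, 6 were lower and 1 higher, where 8.05% and 9.09% of all genes were. The 9 genes were bright, between percentiles 79.9 and 99.2 of all genes. Without the fold limit, 5 passed the adjusted p, all lower, where 3.00% of all genes were. Stat3, used by the receptors of Il21, Il22, Lif and Osm, had the smallest p (10.99 with vehicle and 10.58 with icilin; -0.41 ± 0.06, SE; limma adjusted p = 0.0156). The remaining 4, picked with their values in view, were Stat5a (-0.50), Jak2 (-0.37), Stat5b (-0.35) and Stat4 (-0.30). Of 12 brakes of cytokine signalling, Socs3, an inhibitor that STAT3 induces, fell from 6.66 to 5.90 (-0.75 ± 0.06, limma adjusted p = 0.00180), and 11 were not called. Averaging its probe sets gave -0.49 for Socs3, and no gene of the list was then called.

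Transcription factors that act on cytokine genes were called in both directions. Of 19 measured factors of T cell activation, 2 fell and 0 rose: the AP-1 genes Fosl2, from 9.42 to 8.40 (-1.01 ± 0.07, SE; limma adjusted p = 0.00109), and Junb, from 10.1 to 9.45 (-0.63 ± 0.07). The list median was -0.05. Of 19 lineage factors, 2 rose and 2 fell. Ikzf3, an Ikaros family factor, rose from 8.06 to 8.91 (0.85 ± 0.07), and Eomes, which drives interferon gamma in cytotoxic cells, rose from 4.28 to 4.95 (0.67 ± 0.07). The vehicle mean of Eomes lies close to the 95th percentile of silent genes (4.09). Runx3, a partner of T-bet at the Ifng gene, fell from 8.18 to 7.37 (-0.81 ± 0.07), and Bhlhe40 from 11.1 to 10.5 (-0.60 ± 0.06), the latter call ending without vehicle replicate 3 (-0.56) or with centred arrays (-0.58). Of 13 proteins that bind or degrade cytokine messenger RNA, limma and SAM called 0. When the p was not adjusted (under 0.05), 4 were lower and 1 higher, where 8.05% and 9.09% of all genes were. Arid5a, a stabiliser of cytokine transcripts, had the smallest p (-0.45 ± 0.06, SE; limma adjusted p = 0.0102).

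Of the genes downstream of these cytokines, targets of STAT5 and of STAT3 are described. Of 18 targets of interleukin 2 and STAT5, 3 fell and 0 rose, where 1.03% and 0.370% of all genes did. Values were below 0 in 15 of 18 (median -0.10), against 47.0% of all genes. The 18 targets were bright, between percentiles 62.4 and 99.8 of all genes. The costimulatory receptor gene Tnfrsf9 fell from 11.4 to 10.4 (-1.02 ± 0.07), and the killing proteins Gzmb (-0.76 ± 0.06) and Prf1 (-0.68 ± 0.10) fell as well. Of 15 STAT3 targets, Socs3 and Junb, counted above, fell and 0 rose (median -0.12). The target lists share Socs1, Socs3, Junb, Osm, Il21 and other genes with the lists before them.

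**Figure D4:**
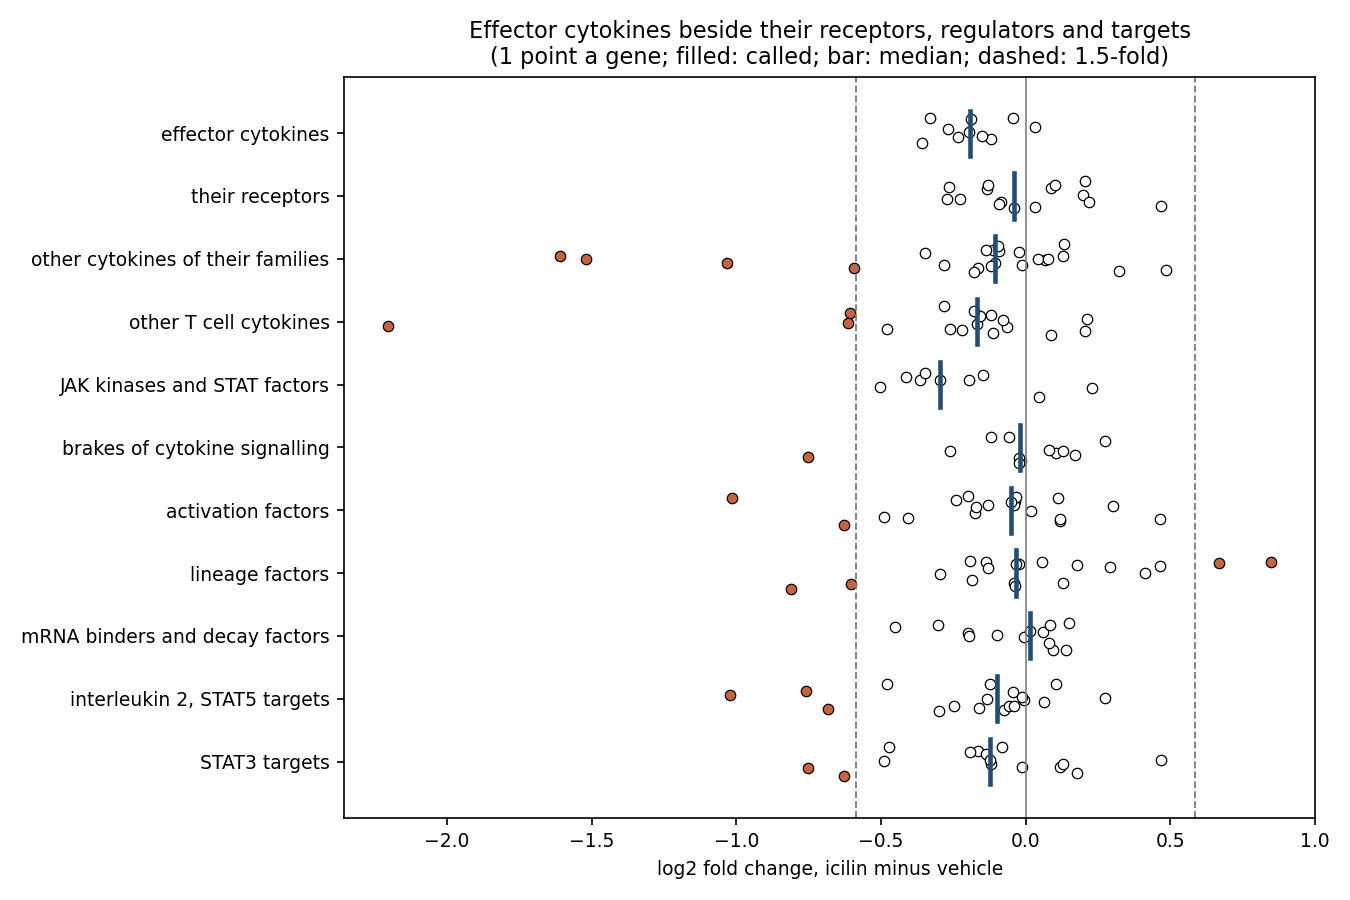
Log2 fold change of single genes, icilin minus vehicle, for the effector cytokines and for 10 lists of related genes (filled, called; blue bar, list median). The effector cytokines lie between -0.36 and 0.03 with no filled point, the filled points of the other cytokine lists and of the STAT5 and STAT3 target lists lie at negative values.

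The identity of the cells was checked against markers. All 11 measured genes of the T cell receptor complex and CD4 T cell list lay between percentiles 92.1 and 99.7 of brightness, and limma and SAM called 0 of them. At an unadjusted p under 0.05, 1 was higher, Cd28 (0.34), and 1 lower, the kinase gene Zap70 (-0.33), where 9.09% and 8.05% of all genes were. Both also had a limma adjusted p under 0.1 (0.0529 for Cd28 and 0.0403 for Zap70), short of 1.5-fold. Of other cells that can make these cytokines, 24 of 51 measured markers exceeded the 95th percentile of the silent receptor genes. That level lay at percentile 42.0 of all genes, so that most genes exceeded it as well. The counts were 5 of 9 genes for CD8 and natural killer cells and 3 of 5 for gamma delta and invariant T cells. They were 8 of 11 for B cells, 6 of 18 for myeloid and dendritic cells and 2 of 8 for mast cells. Such counts do not by themselves show that these cells were present. The mean log2 signal of the CD8 and natural killer list was 4.51 to 4.61 in vehicle and 4.39 to 4.50 in icilin arrays, and that of the gamma delta list 4.16 to 4.50 and 4.25 to 4.50. For B cells it was 4.34 to 4.42 in vehicle and 4.42 to 4.46 in icilin arrays, for myeloid cells 4.44 to 4.55 and 4.44 to 4.49, and for mast cells 3.25 to 3.28 and 3.16 to 3.39. Called genes on these lists were Eomes, Crtam (-0.92), Ms4a1 (1.01), Mpeg1 (0.75) and the MHC class II gene H2-Ab1 (-1.22). The other MHC class II genes of the list, H2-Aa (-0.04) and H2-Eb1 (-0.01), were not called. Of the 11 B cell genes, 6 were above 0 and 5 below, and 10 were not called. Among those 10, picked with their values in view, were Cd79a (0.09), Cd79b (-0.01) and Ebf1 (-0.73). Of the 9 CD8 and natural killer genes, 3 were above 0 and 6 below. Picked in the same way, Cd8b1 stood at 6.47 with vehicle and 6.86 with icilin (0.39, not called), and Cd8a differed by 0.01. Klrb1c (-0.52) and Klrd1 (-0.27) lay within the range of silent genes. The calls of Crtam and Mpeg1 ended with single arrays left out, Crtam at -0.93 to -0.82 and Mpeg1 at 0.63 to 0.76, and that of Mpeg1 also with the replicate block (limma adjusted p = 0.150). The vehicle means of Mpeg1 (3.69) and Ms4a1 (4.07) lie within the range of silent genes. Sox13 (0.21) and Hdc (-0.36) had the smallest p on the gamma delta and mast cell lists, which had 0 calls by limma and SAM (0 and 2 genes at an unadjusted p under 0.05). The part of these cells in the cytokine values was not tested.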

How the data were processed

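The authors deposited log2 values made by Robust Multi-Array Average (RMA) from GeneChip Command Console intensities, per the labels and the series design text; the version and genome build are not given in the sources used here. Of 41345 probe sets, 23521 had a single symbol in the array annotation, 1814 several and 16010 none. The brightest probe set of each gene was kept (22180 genes). Array medians were 4.24 to 4.30.

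The test of icilin against vehicle was that of limma 3.58.1 (R 4.3.3; lmFit and eBayes without trend, with 3.07 prior and 4 residual degrees of freedom). Tests were two-sided, with Benjamini-Hochberg adjustment over all genes. Called means an adjusted p under 0.1 and at least 1.5-fold. SAM was rewritten with its 20 label orders; both were tested on simulated data. The labels do not say that replicate numbers name mice, so p-values measure the spread between arrays and numbers were not used as pairs. Figures used Python 3.11.15 and matplotlib 3.10.9.

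Members and lists were chosen with earlier results of these data known. Besides the members, the text names up to 4 called genes of each of 16 lists by size of change (otherwise the gene with the smallest p) and the 5 genes most correlated with Lif, the member with the smallest p. Alternatives were the replicate block, trend and robust variances, centring, quantile normalization, leaving out dim genes, mean over probe sets, all probe sets, SAM, other limits and leaving out each array. RefSeq (GRCm38.p6) gave names, neighbours and promoter sequences. The result of 1 planned list is not reported here.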

Additional observations from a re-analysis of the deposited data

How the results depend on the processing

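Over the alternatives for processing, limits and left-out arrays, 159 of 165 values of the 10 members kept their direction and their side of the limits. Many of these values could not change direction. The replicate block, trend and robust variances, leaving out dim genes, SAM and other limits leave the log2 fold change as it is. So do the probe set settings, because each member has 1 probe set. Without any fold limit, 1 member (Lif) was called at an adjusted p of 0.05 and 1 at 0.1 (limma). Leaving out single arrays gave -0.12 to 0.23 for Il17f, which was below 0 without icilin replicate 2 or vehicle replicate 2 or 3, and -0.34 to 0.088 for Il9, above 0 only without icilin replicate 2. Same-numbered arrays did not deviate together (correlations of -0.01, -0.01 and -0.02 across genes), so the numbers were not taken as pairs. With the replicate block 283 genes in place of 311 and 0 members were called, and Lif had a limma adjusted p of 0.112. Over its other alternatives that p was 0.000175 to 0.108. For Ifng it ranged from 0.0598, with dim genes left out, to 0.360.

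Genes called numbered 734 with no fold limit at an adjusted p of 0.05, 1170 at 0.1, and 87 at 2-fold. With no fold limit at 0.05 and 0.1, counts became 1 and 1 for receptors, 4 and 5 for JAK and STAT genes, 5 and 6 for activation factors, 1 and 2 for messenger RNA binders and 5 and 5 for STAT3 targets. At 0.1 alone they became 2 for brakes and 6 for STAT5 targets. At 2-fold they were 1 each for other T cell cytokines, activation factors and STAT5 targets, and 0 for brakes, lineage factors and STAT3 targets. The mean over probe sets gave 0 for brakes and 1 for STAT3 targets. These limits add or drop genes by construction; the cause of the other shifts was not tested. With 3 arrays a group, the number of arrays limits precision.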
